A study of Mus musculus with 6 samples.

Results

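Iron uptake, storage and export were described here through 10 genes, chosen by name for their known roles, with earlier results of these data known: Tfrc, Slc11a1, Slc11a2, Fth1, Ftl1, Ncoa4, Slc40a1, Hmox1, Ireb2 and Aco1. All 10 had a row among the 47593 genes of the table, and all 10 passed the minimum mean for testing. The data are RNA-seq read counts per gene from c-Kit selected cells of mouse femur bone marrow, where c-Kit is the surface receptor for stem cell factor on early progenitors. They were infected with the retrovirus MSCVneo carrying MLL-AF9, a leukaemia fusion protein, either unchanged (WT, 3 libraries) or with the substitution E531R in its AF9 part (3 libraries), and both groups were selected on G418 and passaged in methylcellulose with cytokines. The series compares the groups to ask which transcripts change when AF9 no longer binds the corepressor BCOR. The labels give no strain, age or sex of the mice, and do not say whether the replicates were separate infections or animals, so p-values reflect only how far these libraries vary, which may be technical. Every group carried the virus, no uninfected cells were sequenced among these 6 libraries, and no label says that the cells' own Mllt3 and Kmt2a genes were altered.

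Cells take up iron bound to transferrin through the transferrin receptor, move it out of the endosome, and either use it, store it inside ferritin shells, or export it through ferroportin. Dividing cells are known for high transferrin receptor levels, while macrophages take in iron from ingested red cells, free it from heme with heme oxygenase 1, and return it to the blood. Iron regulatory proteins bind a short hairpin, the iron-responsive element, when iron is scarce: in a 5′ UTR they block translation, and in a 3′ UTR they protect the mRNA from decay. The amount of mRNA therefore does not give the amount of protein for ferritin and ferroportin.

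The hairpins of the member transcripts are shown because the described switch acts through them. Their letters were searched in the UTRs of GENCODE M21 transcripts (GRCm38) as a bulged C, then any 5 bases, then the loop CAGTGN, on the strand of the transcript, and the 5 bases before the loop were compared with the 5 after it. In a 5′ UTR the letters with all 5 bases pairing (G with T allowed) were found in 29 of 21101 coding genes, 0.137%, and in a 3′ UTR in 127, 0.602%. The letters alone were found in 11.8% and 34.7%. In the sequences below the bulged C and the loop are in capitals.
Fth1, 5′ UTR, chr19:9982732-9982761, plus strand, 5 pairs: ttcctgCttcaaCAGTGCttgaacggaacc
Ftl1, 5′ UTR, chr7:45459778-45459807, minus strand, 5 pairs: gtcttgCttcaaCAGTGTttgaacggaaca
Slc40a1, 5′ UTR, chr1:45925464-45925493, minus strand, 5 pairs: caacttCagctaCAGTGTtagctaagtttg
Tfrc, 3′ UTR, chr16:32631219-32631248, plus strand, 5 pairs: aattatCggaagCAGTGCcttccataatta
Tfrc, 3′ UTR, chr16:32631598-32631627, plus strand, 5 pairs: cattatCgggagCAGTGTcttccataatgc
Tfrc, 3′ UTR, chr16:32631663-32631692, plus strand, 5 pairs: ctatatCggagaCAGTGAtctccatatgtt
Tfrc, 3′ UTR, chr16:32631710-32631739, plus strand, 5 pairs: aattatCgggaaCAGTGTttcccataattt
Slc11a2, 3′ UTR, chr15:100395152-100395181, minus strand, 4 pairs: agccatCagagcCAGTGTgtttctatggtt

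The 2 ferritin hairpins share the bulged C, the 5 bases before the loop and the 5 after it. Tfrc held 4 fully paired matches within its 3′ UTR, and among the 10 genes a match with 5 pairs was found in Fth1, Ftl1, Slc40a1 and Tfrc alone. The best match in Slc11a2, which has 4 pairs, is the one shown. Matches in UTRs of Slc11a1, Ireb2 and Ncoa4 had at most 2 pairs, and Hmox1 and Aco1 had no match to the letters in their UTRs. A match is a description of letters and not a measured binding site.

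Of the 10 genes, 5 rose in E531R and 0 fell at an adjusted p under 0.05 (limma with Benjamini-Hochberg adjustment over all 12991 tested genes), and 6 had an unadjusted p under 0.05. Over all tested genes 10.4% rose and 9.53% fell, 19.9% in either direction. The genes that rose encode the lysosomal iron transporter of phagocytes (Slc11a1, 4.33-fold), heme oxygenase 1 (Hmox1, 2.60-fold), the exporter ferroportin (Slc40a1, 2.01-fold), the ferritin cargo receptor (Ncoa4, 1.58-fold) and the ferritin light chain (Ftl1, 1.53-fold). The transferrin receptor gene Tfrc, the divalent metal transporter gene Slc11a2 and the iron regulatory protein genes Ireb2 and Aco1 did not pass, nor did the ferritin heavy chain gene Fth1. The 3 values of each group were entirely apart in 5 members, the same 5 that rose, against 44.0% of all tested genes, so separation alone is common here. The median log2 fold change was 0.51 over the members and 0.01 over all tested genes.

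The third WT library (WT replicate 3) was unlike its group, and this bears on several members. It differed from WT replicates 1 and 2 by a root mean square of 0.617 and 0.638 on the log2 scale, while those 2 differed by 0.302 and the E531R libraries by 0.234 to 0.276. Without it, 24.3% of all tested genes were higher and 23.1% lower in E531R, 47.4% in all, and 6 members were higher (the 5 above and Fth1) and 0 lower. Against the mean of the other WT libraries on the log2(value + 1) scale, Tfrc was lower in WT replicate 3 by a difference of -0.92 and Ireb2 by -0.95, while Ftl1 was higher by 0.56, Fth1 by 0.46 and Slc11a1 by 0.46. Tfrc and Ireb2 have the lowest GC content of the members in their longest transcript, 39.8% and 39.0%, and Ftl1 the highest, 58.1%. Across 12544 genes, which are not independent replicates, this difference correlated with GC content at r = 0.56 and with log2 exon length at r = -0.15, and the part of either in the results was not tested. Reads assigned to genes ran from 14161139 to 33459668 per library.

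**Figure D1:**
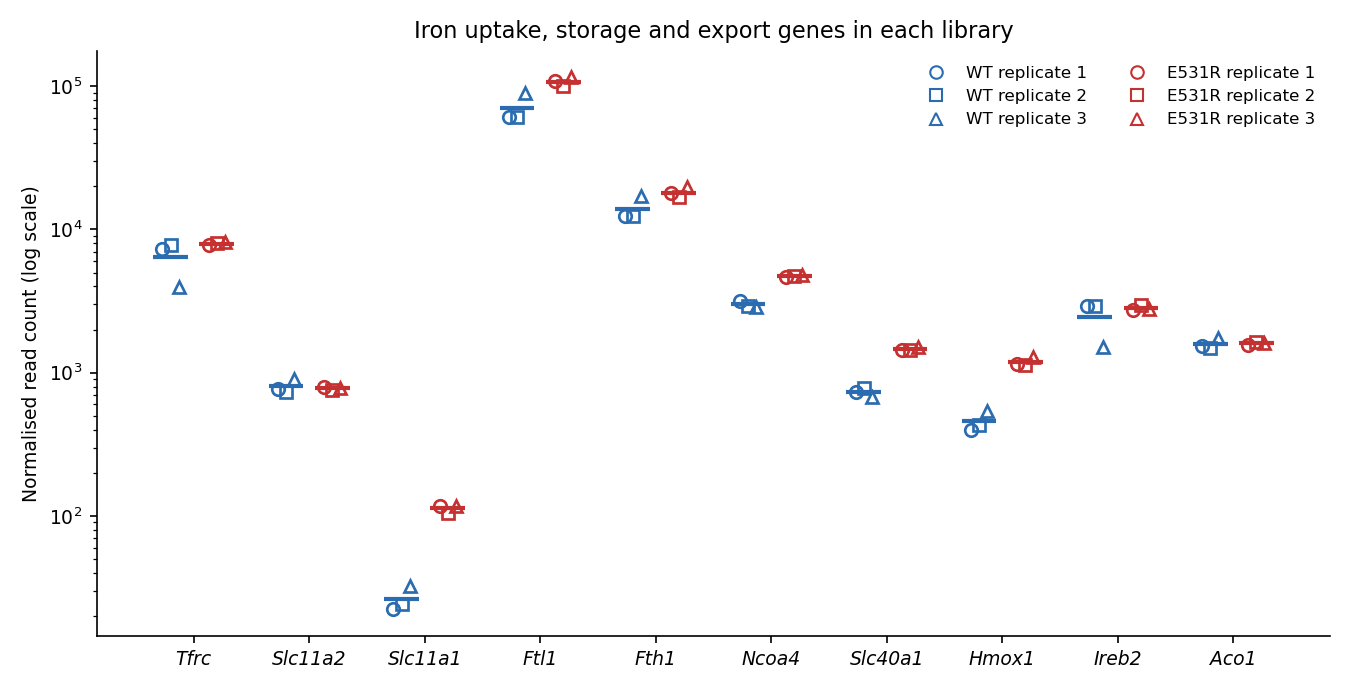
Normalised read count (log y axis) of the 10 genes in each of the 6 libraries, with WT in blue, E531R in red, a symbol for each replicate number and a bar at the mean of 3. The E531R points of Slc11a1, Hmox1, Slc40a1, Ncoa4 and Ftl1 lie above all WT points, and the WT replicate 3 triangle lies below the other WT points in Tfrc and Ireb2 and above them in Ftl1 and Fth1.

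Uptake began with Tfrc, the receptor that brings in transferrin-bound iron (chromosome 16, 32608920 to 32632794, GRCm38). Its normalised read count was 7335, 7800.1 and 3988 in WT replicates 1, 2 and 3, and 7749.6, 7992 and 8178 in E531R replicates 1, 2 and 3. The groups overlapped, with WT replicate 3 low and the other 5 libraries close together. The means were 6374 ± 2079.9 and 7973 ± 215 (SD, n = 3 each), and the log2 fold change was 0.38 with a 95% interval of -0.20 to 0.96 (limma adjusted p = 0.327). Without WT replicate 3 the log2 fold change was 0.08 (limma adjusted p = 0.128), and the mean of the E531R libraries was 1.05 times that of the 2 remaining WT libraries. With a GC and length trend removed from each library, an alternative chosen after seeing the data, it was 0.14 (limma adjusted p = 0.151).

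Slc11a2 encodes the divalent metal transporter that moves iron out of endosomes (chromosome 15, 100387898 to 100425072). Its normalised read count was 774, 734 and 907 in WT and 796, 754 and 787 in E531R. The E531R values lay inside the WT range. The log2 fold change was -0.04 with a 95% interval of -0.27 to 0.19 (limma adjusted p = 0.79), and without WT replicate 3 it was 0.05 (adjusted p = 0.521).

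Slc11a1, also known as Nramp1, encodes the related transporter of phagocyte lysosomes and phagosomes (chromosome 1, 74375195 to 74386062). Its normalised read count was 22.3, 24.1 and 32.3 in WT and 118, 105 and 118 in E531R. Every E531R library was above every WT library. The WT values rest on 14, 21 and 41 reads, and the E531R values on 170, 108 and 121. The means were 26.2 ± 5.30 and 114 ± 7.43 (SD, n = 3 each), which is 2.09 on the log2 scale (SE 0.179; limma adjusted p = 0.000284). The difference between the changes of Slc11a1 and Slc11a2 was not tested.

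Storage was described by the 2 ferritin chains, which assemble into 1 shell: the heavy chain oxidises iron as it enters, and the light chain helps to form the mineral core. Ftl1 (chromosome 7, 45457944 to 45459884) had 61383, 60490.4 and 90005 normalised reads in WT and 108011, 100084 and 115334 in E531R. Its groups did not overlap, with WT replicate 3 nearer to E531R than to the other WT libraries. On the log2 scale it rose by 0.63 (SE 0.169; limma adjusted p = 0.0408). This call was lost without WT replicate 1 or 2 (adjusted p = 0.125 and 0.108) and without E531R replicate 1, 2 or 3 (0.137, 0.102 and 0.149), with log2 fold changes of 0.53 to 0.69, and without the minimum mean (0.0583). Without WT replicate 3 the log2 fold change was 0.82 (limma adjusted p = 2.7e-09).

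Fth1 (chromosome 19, 9980598 to 9985098) had 12357, 12373 and 17053 normalised reads in WT and 17872, 16725 and 19636 in E531R. The groups overlapped through 1 pair, WT replicate 3 above E531R replicate 2. The log2 fold change was 0.39 with a 95% interval of 0.05 to 0.73, and it did not pass (limma adjusted p = 0.108). Without WT replicate 3 it was 0.54 (limma adjusted p = 1.94e-07), while removing the GC and length trend gave 0.43 (adjusted p = 0.0222). The authors' deposited table gives adjusted p-values of 0.00471 for Ftl1 and 0.104 for Fth1. Reads of ferritin copies elsewhere in the genome are uncertain: the pseudogene row Ftl2-ps had a mean of 76.3 in WT and 94.5 in E531R. On the opposite strand of Ftl1, the annotated locus Gm10252 covers 26.5% of its exons, and whether the counting used strand is not stated in these sources.

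Ncoa4 encodes the cargo receptor that carries ferritin to lysosomes so that its iron is freed (chromosome 14, 32159865 to 32179855). Its normalised read count was 3181, 2940.2 and 2881 in WT and 4682, 4747 and 4778 in E531R. The groups were far apart and each was tight, WT replicate 3 included. The log2 fold change was 0.66 (SE 0.0665; limma adjusted p = 0.000585), and it was 0.63 without WT replicate 3.

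**Figure D2:**
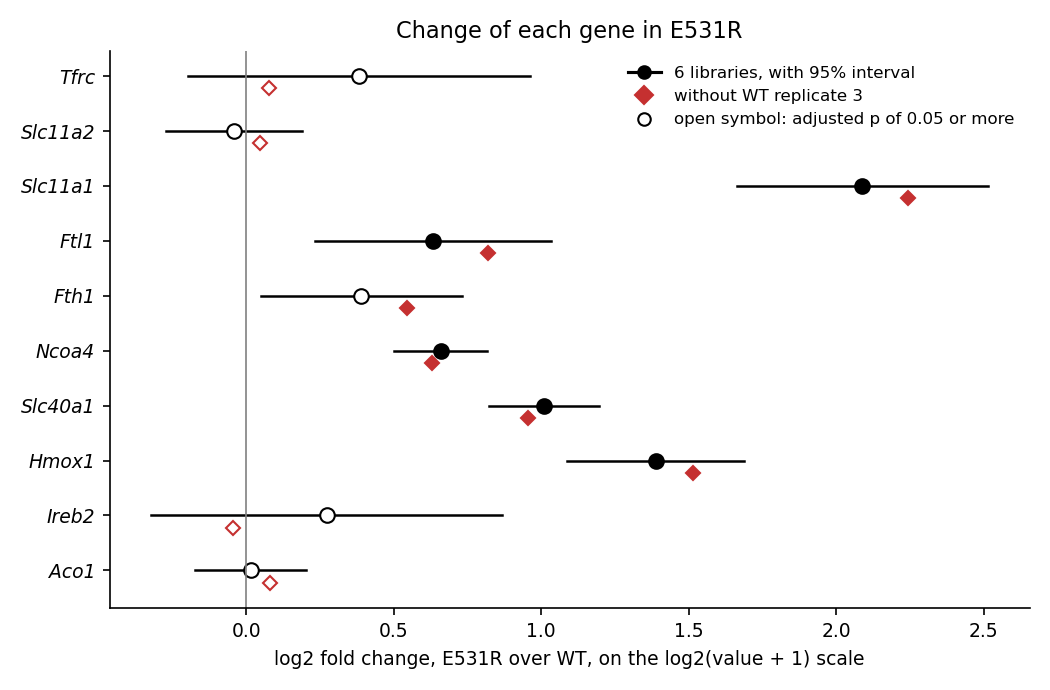
Log2 fold change of E531R over WT (x axis) for each of the 10 genes (rows), as a circle with its 95% interval over 6 libraries and as a diamond without WT replicate 3; filled symbols passed at an adjusted p under 0.05. The 2 estimates lie close for Ncoa4 (0.66 and 0.63) and Slc40a1 (1.01 and 0.96) and apart for Tfrc (0.38 and 0.08) and Ireb2 (0.27 and -0.04), and Fth1 is filled in the second alone.

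Slc40a1 encodes ferroportin, the cellular iron exporter (chromosome 1, 45908068 to 45926523). Its normalised read count was 731, 778 and 674 in WT and 1444, 1448 and 1501 in E531R. Each E531R library was above every WT library, and WT replicate 3 was the lowest of the WT libraries. The means were 728 ± 52.3 and 1464 ± 31.8 (SD, n = 3 each), which is 1.01 on the log2 scale (SE 0.0781; limma adjusted p = 0.000179).

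Hmox1 encodes heme oxygenase 1, which opens the heme ring and frees its iron (chromosome 8, 75093621 to 75100589). Its normalised read count was 396, 434 and 539 in WT and 1152, 1132 and 1277 in E531R. The groups did not overlap. The means were 456 ± 73.8 and 1187 ± 78.7 (SD, n = 3 each), which is 1.39 on the log2 scale (SE 0.126; limma adjusted p = 0.000368). The calls of Slc11a1, Ncoa4, Slc40a1 and Hmox1 held in each alternative run, including when any 1 library was left out.

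The regulators Ireb2 and Aco1 encode iron regulatory proteins 2 and 1, of which the second doubles as cytosolic aconitase. Ireb2 (chromosome 9, 54863789 to 54912530) had 2936, 2902 and 1512 normalised reads in WT and 2759, 2967 and 2775 in E531R. As with Tfrc, WT replicate 3 was low and the other 5 libraries were alike. The log2 fold change was 0.27 with a 95% interval of -0.32 to 0.87 (limma adjusted p = 0.49), and without WT replicate 3 it was -0.04 (adjusted p = 0.421). Aco1 (chromosome 4, 40143081 to 40198338) had 1544, 1487 and 1734 in WT and 1568, 1624 and 1612 in E531R. Its E531R values lay inside the WT range, and the log2 fold change was 0.01 with a 95% interval of -0.17 to 0.20 (limma adjusted p = 0.911). For Aco1 a change beyond 0.20 in either direction lay outside the interval, while for Ireb2 and Tfrc the interval was wide.

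Of the transcripts with a fully paired hairpin, Slc40a1 and Ftl1 rose, and Fth1 and Tfrc did not pass. Those with the hairpin in the 5′ UTR (Fth1, Ftl1, Slc40a1) had log2 fold changes of 0.39, 0.63 and 1.01, and Tfrc with its 3′ UTR hairpins had 0.38. Without WT replicate 3 the values for Fth1, Ftl1 and Slc40a1 were 0.54, 0.82 and 0.96, and that of Tfrc was 0.08. Protein was not measured.

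Ratios of 2 members within a library do not depend on its size factor. The ratio of Ftl1 to Fth1 normalised reads was 4.97, 4.89 and 5.28 in WT and 6.04, 5.98 and 5.87 in E531R. Every E531R library was above every WT library, WT replicate 3 included, and the means were 5.05 ± 0.206 and 5.97 ± 0.0863 (SD, n = 3 each). The ratio of Slc40a1 to Tfrc was 0.0997, 0.0998 and 0.169 in WT and 0.186, 0.181 and 0.183 in E531R, again without overlap. Both gave p = 0.1 in an exact two-sided permutation test, the smallest that 3 against 3 allows, and 0.2 after adjustment over the 4 ratios computed. The ratio of Fth1 to Tfrc was 1.68, 1.59 and 4.28 in WT and 2.31, 2.09 and 2.40 in E531R. Here WT replicate 3 was the highest of all 6 and the other WT libraries the lowest (exact permutation p = 1). The ratio of Ftl1 to Tfrc had the same order, 8.37, 7.75 and 22.6 in WT and 13.9, 12.5 and 14.1 in E531R (exact permutation p = 0.7). These are ratios of reads and not of molecules, since the transcripts differ in length.

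**Figure D3:**
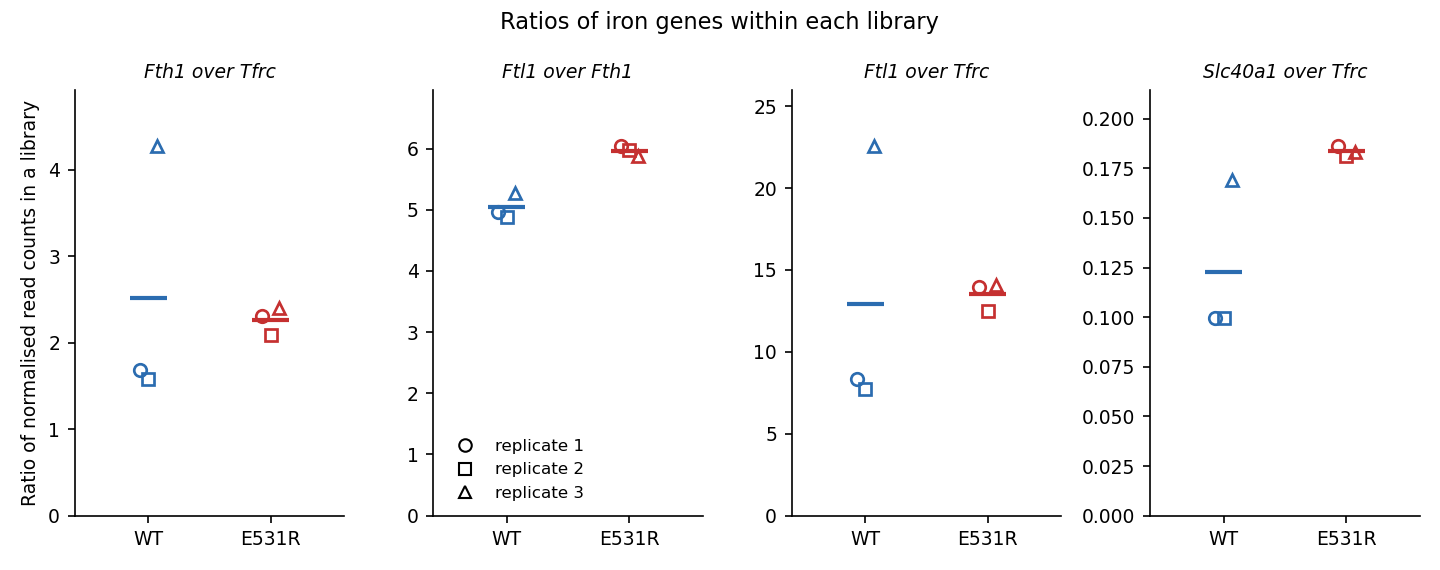
Ratio of normalised read counts of 2 genes within each library (y axis, starting at 0) for 4 pairs, with WT in blue, E531R in red, a symbol for each replicate number and a bar at the mean of 3. The groups are apart in Ftl1 over Fth1 and Slc40a1 over Tfrc, and WT replicate 3 is the highest point in Fth1 over Tfrc (4.28) and Ftl1 over Tfrc (22.6).

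Levels of the members were compared with each other as normalised reads per kilobase of merged exons. In WT, Ftl1 was highest at 52706 ± 12529, then Fth1 at 4015 ± 780.2 and Tfrc at 1031 ± 336 (SD, n = 3 each). Next came Aco1 at 353 ± 28.9 and Ncoa4 at 320.4 ± 17.0, whose ranges overlapped, and Hmox1 at 260.5 ± 42.2 and Ireb2 at 258 ± 85.7, which overlapped too. Slc11a2 had 127 ± 14.3, Slc40a1 80.9 ± 5.81 and Slc11a1 7.08 ± 1.43. In E531R no neighbours in the order overlapped: Ftl1 80455 ± 5692, Fth1 5211 ± 423 and Tfrc 1289 ± 34.7 stayed on top. They were followed by Hmox1 at 678 ± 45.0, Ncoa4 at 506 ± 5.24, Aco1 at 356 ± 6.53 and Ireb2 at 299 ± 12.2. Slc40a1 at 163 ± 3.54 then stood above Slc11a2 at 123 ± 3.47, and Slc11a1 was last at 30.7 ± 2.00. With the length of the longest transcript in place of merged exons, the first 3 and the last kept their places and the order between them changed, with Ncoa4 at place 4 in both groups and Hmox1 at place 5 in E531R.

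Marker lists of cell types were set beside these genes, and they differed in direction. Of tested monocyte and macrophage markers 14 of 16 rose and 1 fell, and their summed normalised reads ran from 22458 to 30212 in WT and from 48101 to 53852 in E531R. The complement genes C1qa, C1qb and C1qc of tissue macrophages averaged no more than 0.556 reads in a group, and Vcam1, a marker of iron-recycling macrophages in the spleen, was the 1 marker that fell. Neutrophil markers rose in 11 of 12, with sums of 190072 to 236481 in WT and 340977 to 356521 in E531R. A large part of these sums was Mpo, the highest gene of the list, with means of 93563 in WT and 137253 in E531R. In bulk cultures more cells of a type and more RNA per cell cannot be told apart, and the part of these markers in the rise of Slc11a1, Hmox1, Slc40a1, Ncoa4 and Ftl1 was not tested. Of 13 erythroid markers, 6 were at 0 in all libraries, among them Hba-a1, and the sums were 25.5 to 42.5 in WT and 24.3 to 33.1 in E531R. Of 16 proliferation markers 0 passed in either direction, with 1 at an unadjusted p under 0.05. The 4 of them with the smallest p, Rrm2, Mki67, Bub1 and Ccna2, gained no call with edgeR or DESeq2. The summed normalised reads of the 16 were nonetheless apart, from 127412 to 129254 in WT and from 135453 to 137337 in E531R. Leaving out WT replicate 3 gave 5 higher and 0 lower among the 16, where 24.3% of all tested genes were higher and 23.1% lower. In the list of 12 lymphoid, mast and stromal cell markers, 7 averaged under 1 normalised read and 4 were tested. Of these 0 rose and 3 fell, Pecam1, Nkg7 and Mcpt8, with Pecam1 the highest gene of the list. The other tested gene, Col1a1, had a log2 fold change of 1.57 and did not pass (limma adjusted p = 0.0918). Kit was present in every library, with 3520.0 to 3702 normalised reads in WT and 3332 to 3340.0 in E531R.

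The wider iron and heme genes, 106 tested in 10 lists, changed in both directions: 16 rose and 8 fell, 15.1% and 7.55%, with a median log2 fold change of -0.01. Over all tested genes the shares were 10.4% and 9.53%. Without WT replicate 3, 40 of the 106 rose and 25 fell, where 24.3% of all tested genes rose and 23.1% fell. Without 1 of the other libraries, 8 to 10 of the 106 rose and 3 to 7 fell. In those runs 819 to 1128 of all 12991 tested genes rose and 746 to 1053 fell. The lists were chosen with earlier results of these data known.

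Among 10 other genes of iron uptake and reduction, Exoc6 rose and 3 fell. Exoc6, an exocyst subunit that recycles transferrin receptor, went from 1685 ± 196 to 2626 ± 8.62 (SD, n = 3 each). Slc39a14, an importer of iron not bound to transferrin, fell from 518 ± 7.10 to 259.6 ± 14.7, and held in all alternatives. Steap3, the reductase of transferrin endosomes, fell from 1272 ± 201 to 827 ± 7.71, and Tfr2, a second transferrin receptor, from 321 ± 53.8 to 217 ± 5.91 (limma adjusted p = 0.0103 and 0.0255). Leaving out E531R replicate 1 or 2 ended the Steap3 call (adjusted p = 0.0521 and 0.052) and leaving out E531R replicate 1, 2 or 3 ended that of Tfr2 (0.109, 0.0897 and 0.0918).

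In the list of the hepcidin axis and copper ferroxidases, which also holds Fbxl5, 2 of 5 tested genes rose and 1 fell. Fbxl5, the iron-sensing ligase subunit that marks iron regulatory protein 2 for destruction, rose from 1024 ± 168 to 1715 ± 103 (SD, n = 3 each; 0.75 on the log2 scale, limma adjusted p = 0.00691), in each alternative. Its target's gene Ireb2 did not pass, as given above. Id1, a target of bone morphogenetic protein signals, rose from 1309 ± 173 to 1883 ± 87.7, and Hfe, a partner of the transferrin receptor, fell from 582 ± 97.3 to 409 ± 33.0. Leaving out E531R replicate 1 or 3 ended the Id1 call (adjusted p = 0.067 and 0.0669), and the Hfe call without WT replicate 1 or 2 (0.0638 and 0.0505) or E531R replicate 1, 2 or 3 (0.149, 0.161 and 0.0811). The ferroxidase gene Heph averaged 56.6 ± 13.1 for WT, and 89.8 ± 7.91 for E531R (adjusted p = 0.0545; 0.000757 without WT replicate 3). The hepcidin genes Hamp and Hamp2 lay under the minimum mean for testing.

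Genes of heme handling outside the members rose in 4 of 9 and fell in 0. Lrp1, a receptor that takes up heme bound to hemopexin among many ligands, rose from 803 ± 108 to 3438 ± 54.6 (SD, n = 3 each). Hp, the hemoglobin-binding protein haptoglobin, rose from 4934 ± 855 to 13707 ± 524. The transporter gene Mfsd7c, now named Flvcr2, rose from 8.59 ± 2.64 to 86.1 ± 5.76. Its WT values of 7.98, 11.5 and 6.30 rest on few reads, which limits its fold change. Blvrb, a biliverdin reductase, rose from 342 ± 66.6 to 538 ± 35.8, and leaving out WT replicate 1 (adjusted p = 0.0658) or any E531R library (0.0569 to 0.092) ended its call. The hemoglobin scavenger receptor Cd163 and the heme-induced factor Spic, both of iron-recycling macrophages, were under the minimum mean, at 10.7 and 0 in WT and 3.99 and 3.61 in E531R.

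Heme synthesis had 2 of 12 higher and 1 lower. Alas1, the first enzyme of the pathway, rose from 5681 ± 744 to 9433 ± 221 (SD, n = 3 each; 0.74 on the log2 scale, limma adjusted p = 0.00232), in each alternative. Slc25a38, a mitochondrial glycine carrier, had 428 ± 43.3 and 555 ± 2.69, and Abcb10, a mitochondrial transporter, 2200.2 ± 334 and 1565 ± 29.3 (adjusted p = 0.0309 and 0.0239). The Slc25a38 call was lost without any 1 library except WT replicate 3 (adjusted p = 0.0858 to 0.127), and the Abcb10 call without WT replicate 1 (0.0575) or any E531R library (0.0852 to 0.1). Ppox had 459 ± 10.3 and 555 ± 28.6 (adjusted p = 0.053; 0.0429 with edgeR).

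Mitochondrial iron import and iron-sulfur assembly had 0 of 23 higher and 1 lower, the chaperone gene Hspa9, from 17256 ± 245 to 13700.1 ± 308 (SD, n = 3 each; limma adjusted p = 0.0108). That call was lost without WT replicate 1 (0.0505) or E531R replicate 1, 2 or 3 (0.0816, 0.0695 and 0.0514). Bola3 and Fdxr, both at -0.44 on the log2 scale, did not pass in limma (adjusted p = 0.0508 and 0.0973). Bola3 passed with edgeR (adjusted p = 0.0455) and DESeq2 (0.0194), and both genes passed with the GC and length trend taken out (0.0139 and 0.0167). The list had 2 lower with edgeR, 3 with DESeq2 and 6 after removal of that trend, each with 0 higher. Without WT replicate 3 it had 2 higher and 7 lower, where 24.3% of all tested genes were higher and 23.1% lower.

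The secreted proteins that bind iron or its microbial carriers both rose: Ltf, lactoferrin, from 31.7 ± 4.65 to 672 ± 70.1, and Lcn2, which captures siderophores, from 329 ± 48.8 to 1794 ± 70.7 (SD, n = 3 each). The third tested gene of the list, Calr, had a log2 fold change of -0.18 (limma adjusted p = 0.234). Of the BACH1 and NRF2 genes, the repressor and activator known to set Hmox1 transcription and their antioxidant targets, 4 of 14 rose and 0 fell. Bach1 and Nfe2l2 themselves had log2 fold changes of 0.03 and 0.19 (adjusted p = 0.898 and 0.0802). The genes that rose were the small Maf partners Maff and Mafg (0.83 and 0.23), the glutathione synthesis gene Gclm (0.26) and G6pdx (0.45), with adjusted p-values of 0.0392, 0.044, 0.031 and 0.0392. These 4 calls were lost without any 1 library except WT replicate 3, with adjusted p-values of 0.0804 to 0.204, and those of Gclm and Mafg also without the minimum mean (0.0715 and 0.0934). Removing the GC and length trend took the Gclm log2 fold change to 0.06 (adjusted p = 0.78).

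Of the genes of ferritin delivery to lysosomes, 0 of 16 passed in limma over the 6 libraries, 3 had an unadjusted p under 0.05, and edgeR called 0 and DESeq2 called 1, Tfeb. Tfeb, a factor that drives lysosome genes, averaged 482 ± 121 for WT, against 708 ± 46.7 for E531R (SD, n = 3 each, limma adjusted p = 0.0564). Without WT replicate 3 the list had 7 higher and 2 lower, where 24.3% of all tested genes were higher and 23.1% lower. Among other tested transcripts known to carry an iron-responsive element, Cdc42bpa fell from 649.5 ± 183 to 266 ± 2.88, and Epas1 and Cdc14a did not pass. In the list of lipid peroxidation genes, Alox5, the first enzyme of leukotriene synthesis, fell from 1107 ± 220.2 to 6.30 ± 3.41. Chac1, a glutathione-degrading enzyme, had 272 ± 52.4 and 385 ± 8.69 (adjusted p = 0.0435), a call lost without any 1 library except WT replicate 3 (0.105 to 0.156), and the other 9 tested genes did not pass.

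**Figure D4:**
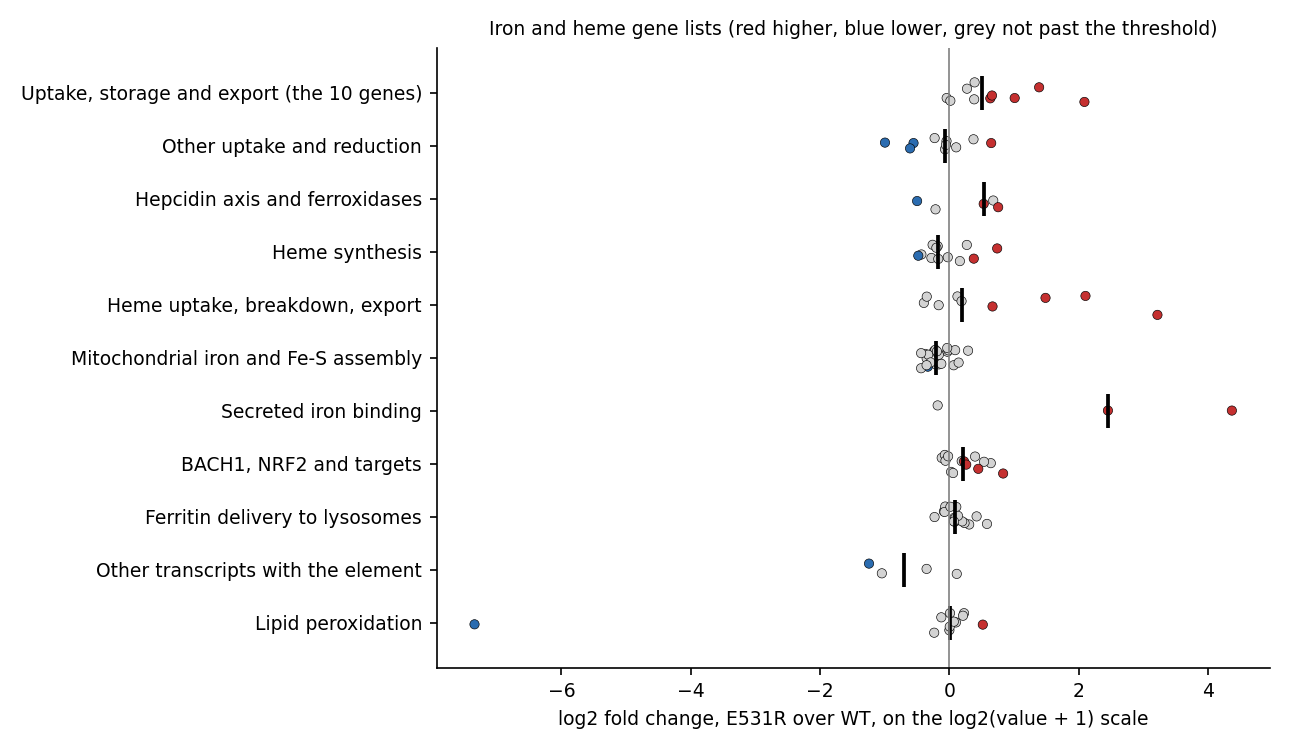
Each point is a tested gene of the 10 members or of 1 of 10 iron and heme lists (rows), placed by its log2 fold change, E531R against WT (x axis); red points were higher and blue lower at an adjusted p under 0.05, grey did not pass, and black bars are medians. The members' median lies at 0.51 and that of the mitochondrial list at -0.21, and the isolated point on the left is Alox5 at -7.34.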

How the data were processed

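The deposited table holds, per gene and library, a signal value: the read count divided by 1 size factor per library, by the authors. The build named is GRCm38 and the tools named are HISAT2, featureCounts, SAMtools, cutadapt, FastQC and DESeq2, per the submitters' processing notes. Tool versions, gene annotation and use of strand are not stated in these sources. The authors also deposited a DESeq2 log2 fold change (WT over E531R, sign turned here), a p-value, an adjusted p-value and a test score per gene. Every value was a whole multiple of its library's smallest value within 0.001 reads, so whole reads were recovered.

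Values were taken as log2(value + 1), so fold changes of low genes are understated. Genes whose mean across the 6 libraries reached 10 were tested with limma 3.58.1 (trend) in R 4.3.3, E531R minus WT, threshold 0.05. Alternatives were pseudocounts 0.5 and 10, no minimum, a minimum of 50, TMM, edgeR 4.0.16 and DESeq2 1.42.0 on recovered reads, a replicate block, and leaving out each library. Removal of a GC and length trend was added after seeing the data. On simulated data limma recovered 30% of 1.5-fold and 78% of 2-fold changes among 200 changed of 12869 genes. It made 14 false calls, 8.59% of its calls and so above the threshold. In the data a larger share, 19.9% of tested genes, was called. The simulation also held no library-wide deviation like that of WT replicate 3, so its rates need not apply here. Ratios were tested with scipy 1.17.1.

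The members and lists were chosen with earlier results of these data known. The genes named were all 10 members and, from each list, up to 4 tested genes with the smallest p; Bach1, Nfe2l2, Cd163, Spic, Kit, the C1q genes and the ferritin copies were added for context. Of 206 list names 2 had no row, and 5 were matched through RefSeq synonyms.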

Additional observations from a re-analysis of the deposited data

How the results depend on the processing

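The calls of Slc11a1, Slc40a1, Hmox1 and Ncoa4 kept their direction and side of the threshold in all alternatives run. Leaving out 1 library moved the number of genes higher from 1349 to between 819 and 3159 and of genes lower from 1238 to between 746 and 2999; the top of each range was without WT replicate 3. For the iron and heme lists the ranges were 8 to 40 higher and 3 to 25 lower. With the GC and length trend removed, 1959 genes were higher and 1971 lower, the lists had 21 higher and 17 lower, and Fth1 passed (0.435). Ftl1 had 0.633 with no minimum mean (adjusted p = 0.0583) and 0.534 to 0.82 without 1 library. Fth1 had 0.312 to 0.545 without 1 library. Over the same leave-outs Slc11a2 had -0.105 to 0.0474, Aco1 -0.0311 to 0.08, the log2 ratio of Fth1 to Tfrc -0.246 to 0.469 and that of Ftl1 to Tfrc -0.0255 to 0.745. Changes of sign were seen in Slc11a2 (0.0474) and Ireb2 (-0.0434) without WT replicate 3, in Aco1 without WT replicate 1 (-0.004) or 2 (-0.0311), in the log2 ratio of Fth1 to Tfrc without WT replicate 1 (-0.203), WT replicate 2 (-0.246), E531R replicate 1 (-0.00695) or 3 (-0.036), and in that of Ftl1 to Tfrc without WT replicate 2 (-0.0255). The cause was not tested. WT replicate 1 was the shallowest library, and the 14 reads of Slc11a1 there limit its fold change.

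With the replicate number as a block, 1179 genes were higher and 1062 lower, the lists had 12 higher and 9 lower, and Fth1 passed at 0.39 (limma adjusted p = 0.047). Under the block Bola3 passed (adjusted p = 0.0259), and the calls of Slc25a38, Gclm, Maff, Mafg and Chac1 were lost (adjusted p = 0.0602, 0.077, 0.0543, 0.112 and 0.0549). Same-numbered libraries had correlated deviations of 0.002, 0.192 and 0.238, and WT replicate 1 correlated best with E531R replicate 2 (0.177), so the numbers were not taken as pairs.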
